A study of Rattus norvegicus with 20 samples.

Results

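Myeloid C-type lectin receptors are membrane proteins of monocytes, macrophages, dendritic cells and neutrophils that bind sugars, glycolipids and other ligands of microbes and of dying cells. The set described here is 8 genes, Clec4a1, Clec4a2, Clec4a3, Clec12a, Clec4d, Clec4e, Clec7a and Clec5a, each represented by the array probe set that carries its symbol, or by the brightest one had a gene had several. Of these 8 genes, 7 had a named probe set, 1 each, out of 14557 named genes, and all 7 were among the 8499 genes bright enough to be tested. Clec7a, the beta-glucan receptor Dectin-1, had no probe set named for it in the annotation used here and has no value below.

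Blood was taken from 20 male rats in 4 groups of 5, with 1 Affymetrix Rat Gene 2.1 ST array for each rat. The groups were rats given rosiglitazone, rats given resveratrol, obese rats given neither agent, and lean control rats. All are labelled as ZDF (Zucker diabetic fatty) rats of the Zucker strain, housed singly with food and water at will. The paper, however, names the lean control rats apart from the ZDF rats, which it describes as prone to diabetes by genotype. It is unclear whether the lean rats share that predisposition. The obese rats had a stock diet for 6 weeks and the lean rats a standard chow. Diet, obesity and any difference in genotype therefore cannot be told apart. Rosiglitazone is an insulin-sensitizing agonist of the nuclear receptor PPAR-gamma, and resveratrol is a plant polyphenol. Doses, length of treatment, ages and the diet of the treated rats are not given in the sources used here. Values are log2 intensities, so a difference of 1 is a doubling; a level can be compared between rats for 1 gene but not between genes, whose probes differ.

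Myeloid lectin receptors include inhibitory and activating ones. Human DCIR and CLEC12A (MICL) carry tyrosine-based inhibitory motifs that recruit the phosphatases SHP-1 and SHP-2. Clec4a1, Clec4a2 and Clec4a3 (also named Dcir4, Dcir2 and Dcir3) belong to the DCIR group of rodents, in which not every member has the motif; which of these rat genes carry it was not examined, so no signal is assigned to them. Clec4d (MCL) and Clec4e (Mincle, a receptor for mycobacterial cord factor) pair with the Fc receptor gamma chain and activate the kinase Syk and the adaptor Card9. Clec5a (MDL-1) pairs with DAP12, the product of Tyrobp, and was kept out of the sets compared below.

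All 8 genes lie on rat chromosome 4. In the RefSeq annotation of assembly GRCr8, Clec4a1, Clec4a3, Clec4a2, Clec4a, Clec4b2, Clec4d and Clec4e are 7 consecutive protein-coding genes in that order, of which Clec4a and Clec4b2 were named on the array but too dim to be tested. Clec12a and Clec7a lie farther along the same chromosome, near each other, and Clec5a lies far from both groups. The promoters of 4 genes of the 7-gene cluster are shown because their levels moved together in pairs (below, Clec4a1 with Clec4a3 and Clec4d with Clec4e). Each is 250 bases before and 50 from the annotated start, from RefSeq, 5′ to 3′ on the strand of the gene, with capitals on matches to GAGGAA (the core bound by PU.1 and other ETS factors) and TGTGGT (the RUNX core) on either strand.

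Clec4a1: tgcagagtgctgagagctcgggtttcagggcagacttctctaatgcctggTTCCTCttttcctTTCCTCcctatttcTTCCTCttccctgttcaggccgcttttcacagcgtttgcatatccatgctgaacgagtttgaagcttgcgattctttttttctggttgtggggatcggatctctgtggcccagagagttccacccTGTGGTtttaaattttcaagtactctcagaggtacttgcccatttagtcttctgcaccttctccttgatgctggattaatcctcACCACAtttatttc
Clec4a3: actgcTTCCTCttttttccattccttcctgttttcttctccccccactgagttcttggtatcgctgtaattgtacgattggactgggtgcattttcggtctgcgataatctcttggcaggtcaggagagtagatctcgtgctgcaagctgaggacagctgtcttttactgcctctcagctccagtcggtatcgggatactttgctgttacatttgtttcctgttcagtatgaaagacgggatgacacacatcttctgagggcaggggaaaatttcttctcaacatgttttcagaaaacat
Clec4d: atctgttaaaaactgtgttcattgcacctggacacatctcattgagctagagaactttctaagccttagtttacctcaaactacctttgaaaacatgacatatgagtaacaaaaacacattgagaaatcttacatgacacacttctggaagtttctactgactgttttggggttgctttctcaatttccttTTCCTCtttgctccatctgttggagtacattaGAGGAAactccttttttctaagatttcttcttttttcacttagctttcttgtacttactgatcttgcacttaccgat
Clec4e: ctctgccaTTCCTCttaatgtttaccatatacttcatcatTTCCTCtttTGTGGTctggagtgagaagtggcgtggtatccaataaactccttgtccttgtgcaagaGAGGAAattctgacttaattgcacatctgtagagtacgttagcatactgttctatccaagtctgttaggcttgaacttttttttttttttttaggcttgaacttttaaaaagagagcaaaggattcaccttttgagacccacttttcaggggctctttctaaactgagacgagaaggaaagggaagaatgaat

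These windows are chr4:157845561-157845860 on the plus strand for Clec4a1, chr4:157886508-157886807 on the plus strand for Clec4a3, chr4:158275093-158275392 on the plus strand for Clec4d and chr4:158298418-158298717 on the minus strand for Clec4e, so that Clec4d and Clec4e are read in opposite directions. GAGGAA, which 27.6% of 33469 rat promoters of the same length hold, occurred 3 times in the Clec4a1 window, 1 time in that of Clec4a3, 2 times in that of Clec4d and 3 times in that of Clec4e. Clec12a had 2 matches, and Clec4a2, Clec5a and Clec7a had 0. TGTGGT, held by 17.3% of promoters, occurred 2 times for Clec4a1, 1 time each for Clec4a2, Clec12a, Clec4e, Clec5a and Clec7a, and 0 times for Clec4a3 and Clec4d. The C/EBP pattern TTNNGNAA, searched on both strands like the others, able to hold a GAGGAA match within it and found in 41.3% of promoters, had 3 matches for Clec4d, 2 each for Clec4a3, Clec4e and Clec5a, 1 each for Clec4a2, Clec12a and Clec7a and 0 for Clec4a1. AGGTCA, the core that nuclear receptors such as PPAR-gamma bind, held by 16.2% of promoters, was present 1 time in the Clec4a3 window and 0 times in the other 7. The AP-1 pattern TGANTCA (7.3% of promoters) had 1 match, in Clec12a, and the NF-kB consensus (19.3%) had 1, in Clec5a. A match describes the letters only.

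The arrays were comparable in their overall level, with medians between 2.54 and 2.78 over all probe sets. Lean replicate 1 carried skeletal muscle transcripts (mean of 6 tested muscle genes 6.20, at most 3.81 on the other 19 arrays), and resveratrol replicate 1 and rosiglitazone replicate 5 had the lowest median correlation with the other arrays (0.922 and 0.928), so results are also given without these 3 arrays where a call changes. The blood identity of the samples was borne by red cell, platelet, monocyte and neutrophil transcripts in every group, for example group means of 8.22 to 8.46 over 7 red cell genes. In blood RNA, fewer cells of a type and less RNA per cell cannot be told apart.

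Clec4a1 was the receptor that differed most between obese and lean rats. Its values were 6.00, 6.40, 6.23, 6.55 and 6.10 in obese rats, against 5.57, 4.97, 5.72, 5.63 and 5.24 in lean rats. Every obese rat lay above every lean rat. The difference was 0.83 on the log2 scale (SE 0.17, 1.78-fold, 95% interval 0.48 to 1.19; limma, adjusted p = 0.0224 over 8499 genes, n = 5 each). It was the 1 receptor of 7 to pass the test, where 2.95% of all tested genes passed in either direction and 0.8% as higher. Groups were likewise fully separated, with obese above, for 1.49% of genes. The call was lost when the spread was estimated from all 20 arrays (adjusted p = 0.104; 0.00519 to 0.104 over 9 alternatives) and when lean replicate 2, the lowest of its group, was left out (difference 0.72, adjusted p = 0.0614).

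**Figure D1:**
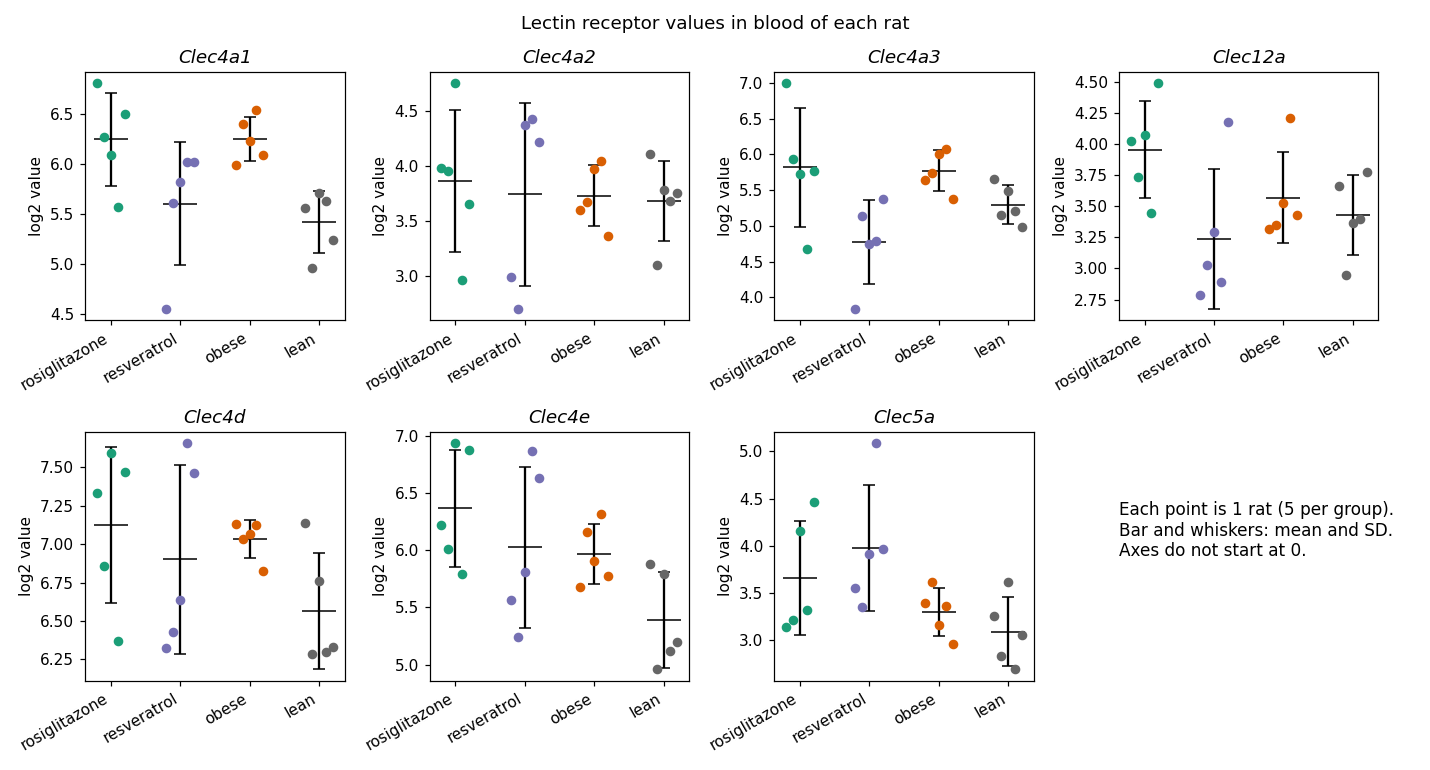
Log2 array value (vertical axes, which do not start at 0) of each of the 7 measured receptors in each rat, by group, with points for single rats and bars for the mean and SD of 5 rats. Clec4a1 in obese rats (6.00 to 6.55) lies above all lean rats (4.97 to 5.72), and all resveratrol rats lie below all obese rats for Clec4a3.

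The other receptors were also higher on average in obese rats, with no call. Clec4e, the cord factor receptor, read 5.68, 6.16, 5.91, 6.32 and 5.77 in obese rats, against 5.88, 4.96, 5.79, 5.12 and 5.20 in lean rats (difference 0.58, SE 0.19, adjusted p = 0.0984). Its groups overlapped through lean replicates 1 and 3. Clec4d averaged 7.03 ± 0.12 in obese rats and 6.56 ± 0.38 in lean rats (SD, n = 5 each; difference 0.47, adjusted p = 0.115), and Clec4a3 5.77 ± 0.29 in obese rats and 5.30 ± 0.27 in lean rats (difference 0.47, adjusted p = 0.114). Clec5a (difference 0.21), Clec12a (0.14) and Clec4a2 (0.05) lay within the spread of the rats, with adjusted p of 0.501 or more. For all 7 receptors the difference was above 0, with a median of 0.47, against a median of -0.08 and 39.05% of differences above 0 over all tested genes; for Clec4a2 the sign turned when arrays were centred on their medians (-0.022). Clec4a2 and Clec12a lay on both sides of 0 when single rats were left out.

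Markers of monocytes and neutrophils were higher in the same rats. The mean of 14 tested monocyte genes (of 20 listed, 16 of them named on the array) was 6.48 to 6.76 in obese rats, against 5.86 to 6.45 in lean rats, and 4 of the 14 rose and 0 fell, among them Treml4 (0.97) and the chemokine receptors Cx3cr1 (0.71), of non-classical monocytes, and Ccr2 (0.86), of classical ones. The mean of 12 tested neutrophil genes (of 21 listed, 18 named) was 5.07 to 5.57 in obese rats, against 4.54 to 5.29 in lean rats, and 2 of the 12 rose, Mmp8 (0.90) and S100a8 (1.01). Of the B cell genes 2 of 9 fell, as did 3 of 16 T cell, 1 of 10 NK cell and 5 of 8 platelet genes. Over all 8499 tested genes 68 rose and 183 fell. The part of these cell types in the higher Clec4a1 was not tested.

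**Figure D2:**
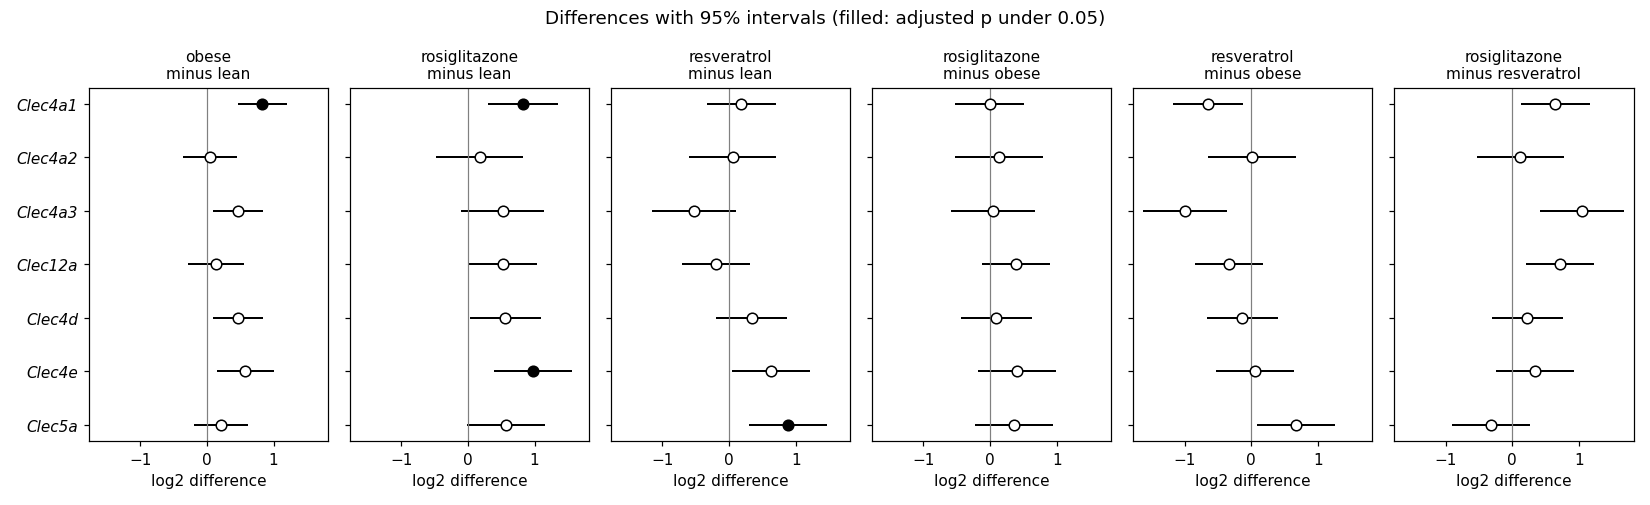
Difference of group means on the log2 scale (horizontal axes) for each receptor in the 6 comparisons, with 95% intervals from limma; filled points have an adjusted p under 0.05 over all tested genes. Clec4a1 is filled in obese and in rosiglitazone rats against lean rats, Clec4e in rosiglitazone and Clec5a in resveratrol rats against lean rats, and none is filled against obese rats or between the treatments.

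In rosiglitazone rats the receptors did not differ detectably from those of obese rats. By limma 0 of the 7 passed the adjusted test, where 0.165% of all tested genes did, and 0 had an unadjusted p under 0.05, where 12.1% of genes did. Clec4a1 read 6.81, 6.28, 6.10, 5.57 and 6.50 in rosiglitazone rats, and the difference from obese rats was -0.004 (95% interval -0.51 to 0.50). The sign of so small a value turned with quantile normalization (0.022) and with array weights (0.046). Clec4e was 0.40 higher (interval -0.17 to 0.97), Clec12a 0.39 (-0.11 to 0.88) and Clec5a 0.36 (-0.21 to 0.93). Single rats moved these values: without rosiglitazone replicate 3 Clec4e was 0.26 and Clec5a 0.24 higher, and without rosiglitazone replicate 5 Clec12a was 0.25 and Clec5a 0.16 higher. Clec4a2 (0.13), Clec4d (0.09) and Clec4a3 (0.05) had intervals that lay between -0.56 and 0.77, so differences of that size in either direction could not be told from 0 with these rats.

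Against the lean rats, which also served the comparison with obese rats, Clec4a1 and Clec4e rose in rosiglitazone rats. Clec4e read 6.22, 6.01, 6.93, 5.80 and 6.87 in rosiglitazone rats, against the lean values given above, and was 0.98 higher (SE 0.28, 1.97-fold, adjusted p = 0.0180). The lowest rosiglitazone rat lay below the highest lean rat, so the groups overlapped by that pair of rats. Clec4a1 was 0.83 higher (SE 0.24, adjusted p = 0.0220). These were 2 of 7 receptors, beside 18.6% of all tested genes in either direction and 4.17% as higher. Both calls were lost without lean replicate 2 (adjusted p = 0.0648 for Clec4a1 and 0.0506 for Clec4e) and without rosiglitazone replicate 5 (0.0635 and 0.0622), and that of Clec4a1 without rosiglitazone replicate 1 (0.0585). Over the 9 other alternatives the adjusted p was 0.00735 to 0.0356 for Clec4a1 and 0.00943 to 0.0486 for Clec4e. The neutrophil mean was 4.99 to 6.99 and the monocyte mean 6.01 to 7.07 in rosiglitazone rats, and against lean rats 7 of 12 neutrophil genes rose, and of 14 monocyte genes 4 rose and 1 fell. Their part in the receptor values was not tested.

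Rosiglitazone replicate 4 was the lowest rat of its group for 6 receptors, Clec4a1 (5.57), Clec4a2 (2.97), Clec4a3 (4.67), Clec12a (3.45), Clec4d (6.37) and Clec4e (5.80), while its Clec5a (3.33) was not. Without it 4 receptors passed the test against lean rats, Clec4a3 (0.81, adjusted p = 0.0457) and Clec4d (0.75, adjusted p = 0.0421) beside the other 2. Neither Clec4a3 nor Clec4d passed when any other single rat of these groups was left out. Of all 8499 tested genes 18.6% passed with every rat kept, and 785 to 1648 genes passed when single arrays were left out. Replicate 4 was singled out here by its receptor values, and leaving out the lowest rat raises the mean of its group by construction. The array of replicate 4 is not among the 3 that stood apart. The mean of the monocyte genes in replicate 4, 6.01, was likewise the lowest of the group, where the highest was 7.07.

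Resveratrol rats differed from obese rats most in Clec4a3, and no receptor passed the test. Clec4a3 read 3.84, 5.14, 4.74, 4.78 and 5.37 in resveratrol rats, against 5.65, 5.74, 6.01, 6.08 and 5.37 in obese rats. Every resveratrol rat lay below every obese rat, the nearest pair at 5.370 and 5.374, and 1.09% of all tested genes were separated in this direction. The difference was -0.996 (SE 0.30, interval -1.61 to -0.38), with an unadjusted p of 0.00257 in limma and an adjusted p = 0.370 (n = 5 each). Of 8499 genes 0 (0%) passed the adjusted test, and 873, or 10.3%, had an unadjusted p under 0.05, as did 3 of the 7 receptors. Without resveratrol replicate 1, the lowest rat, the difference was -0.76.

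The other 2 receptors past the unadjusted threshold went in opposite directions. Clec4a1 read 4.55, 5.62, 5.82, 6.02 and 6.03 in resveratrol rats and was 0.65 below obese rats on average (difference -0.65, SE 0.24, adjusted p = 0.396), a value that became -0.38 without resveratrol replicate 1. Clec5a, the DAP12-coupled receptor, read 3.56, 3.36, 3.91, 5.08 and 3.96 in resveratrol rats, against 3.40, 3.62, 3.16, 3.37 and 2.96 in obese rats (difference 0.67, SE 0.28, adjusted p = 0.412). Resveratrol replicate 4 was the highest for Clec5a, and without it the difference was 0.40. Clec12a (-0.33, with -0.17 without obese replicate 4 and -0.57 without resveratrol replicate 5), Clec4d (-0.13), Clec4e (0.06) and Clec4a2 (0.01) had intervals that crossed 0; the sign for Clec4d turned without the 3 arrays that stood apart (0.011). Monocyte genes had a median difference of -0.43 and 1 of 14 was above 0, neutrophil genes a median of 0.29 and 10 of 12 were above 0, and 0 of either list passed the test.

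Against the lean rats, Clec5a rose in resveratrol rats. Lean rats read 3.26, 2.83, 3.62, 2.69 and 3.05, and the difference was 0.88 (SE 0.28, 1.84-fold, adjusted p = 0.0384), 1 of 7 receptors beside 13.2% of all tested genes in either direction and 2.73% as higher. The groups overlapped through resveratrol replicates 1 and 2, which lay below the highest lean rat. The call was lost without the filter on dim genes (adjusted p = 0.0526), with quantile normalization (0.0644), without the 3 arrays that stood apart (0.0568) and without 8 of the 10 rats in turn (up to 0.0961), so that it held in 6 of 9 alternatives (0.0142 to 0.0644). Those rats were every one but lean replicate 3 and resveratrol replicate 2. Clec4e was 0.63 above lean rats (adjusted p = 0.118), and passed without resveratrol replicate 2 (0.83, adjusted p = 0.0489); Clec4a1 was 0.18 above (adjusted p = 0.634) and Clec4a3 was 0.52 below (difference -0.52, adjusted p = 0.228), with 0.45 for Clec4a1 and -0.29 for Clec4a3 without resveratrol replicate 1. The neutrophil mean was 5.06 to 6.04 and the monocyte mean 5.42 to 6.39 in resveratrol rats, beside the lean ranges given above; 4 of 12 neutrophil genes rose against lean rats and 0 of 14 monocyte genes did, with 1 fall, Ly86 (-0.82). The part of either cell type in the receptor values was not tested.

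Between the treatments Clec4a3 had the widest gap. It read 6.997, 5.94, 5.72, 4.67 and 5.76 in rosiglitazone rats, against the resveratrol values above, a difference of 1.04 (SE 0.30, 2.06-fold, adjusted p = 0.253). The groups overlapped only through rosiglitazone replicate 4, and without that rat the difference was 1.33 with an adjusted p = 0.0387. Clec4a3 passed in this 1 of the 10 fits with a single rat left out. Over those fits the difference was 0.75 to 1.33 and the adjusted p 0.0387 to 0.49. Over the 9 other alternatives the difference was 0.82 to 1.05 and the adjusted p 0.183 to 0.64. Clec12a was 0.72 higher in rosiglitazone rats (adjusted p = 0.365) and Clec4a1 0.64 higher (adjusted p = 0.425); without the 3 arrays that stood apart these were 0.47 and 0.32, and without resveratrol replicate 1 alone Clec4a1 was 0.38 higher. Clec5a ran the other way, at 3.66 ± 0.60 in rosiglitazone rats and 3.98 ± 0.67 in resveratrol rats (difference -0.31, adjusted p = 0.779), with -0.62 without the 3 arrays and between -0.51 without rosiglitazone replicate 5 and -0.037 without resveratrol replicate 4. None of the 7 passed, where 4 of 8499 genes (0.0471%) did, and 3 of the 7 had an unadjusted p under 0.05, where 765 genes, or 9%, did.

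Ordered by group mean, the receptors fell into several patterns. Clec4a1 was highest in obese (6.26 ± 0.22) and rosiglitazone rats (6.25 ± 0.47), then 5.61 ± 0.61 in resveratrol and 5.43 ± 0.31 in lean rats. By these means obese and rosiglitazone rats lay near each other, as did resveratrol and lean rats. The second likeness rested on resveratrol replicate 1. Without that rat Clec4a1 in resveratrol rats was 0.45 above lean rats and 0.38 below obese rats. Clec4a3 averaged 5.82 ± 0.83 in rosiglitazone, 5.77 ± 0.29 in obese, 5.30 ± 0.27 in lean and 4.77 ± 0.59 in resveratrol rats, and Clec12a had the same order, with 3.95 ± 0.39 in rosiglitazone, 3.57 ± 0.37 in obese, 3.43 ± 0.32 in lean and 3.24 ± 0.56 in resveratrol rats. These were the 2 receptors with resveratrol rats lowest. Clec4e ran rosiglitazone (6.37 ± 0.51), resveratrol (6.02 ± 0.70), obese (5.97 ± 0.27), lean (5.39 ± 0.42), and Clec4d rosiglitazone (7.12 ± 0.51), obese (7.03 ± 0.12), resveratrol (6.90 ± 0.61), lean (6.56 ± 0.38). For Clec5a resveratrol rats were highest (3.98 ± 0.67), then rosiglitazone (3.66 ± 0.60), obese (3.30 ± 0.25) and lean rats (3.09 ± 0.36). Clec4a2 averaged 3.86 ± 0.64 in rosiglitazone, 3.74 ± 0.83 in resveratrol, 3.73 ± 0.28 in obese and 3.69 ± 0.36 in lean rats. For no receptor did neighbours in its order differ past the test.

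Treated rats varied more among themselves than untreated ones in several receptors. The SD of Clec4d was 0.51 in rosiglitazone and 0.61 in resveratrol rats, against 0.12 in obese and 0.38 in lean rats. The SD of Clec4a2 was 0.64 in rosiglitazone and 0.83 in resveratrol rats, against 0.28 in obese and 0.36 in lean rats. In the resveratrol group Clec4a2 fell into a low pair (2.995 and 2.704 in replicates 1 and 2) and 3 high rats (4.22 to 4.43). This spread was not particular to the receptors. The SD of the monocyte mean was 0.39 in rosiglitazone and 0.42 in resveratrol rats, against 0.12 in obese and 0.21 in lean rats. For the neutrophil mean the SD was 0.80 and 0.44, against 0.19 and 0.33 in the same order. The red cell mean did not spread more in treated rats (0.10 and 0.20, against 0.22 and 0.35). The difference in spread was not tested.

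The DCIR group with Clec12a was then set beside the activating pair Clec4d and Clec4e. For each rat the mean of Clec4a1, Clec4a2, Clec4a3 and Clec12a, less the mean of Clec4d and Clec4e, was taken; its level depends on the probes, and only its differences between groups can be read. The mean was -1.77 ± 0.36 in rosiglitazone rats, -2.12 ± 0.45 in resveratrol rats, -1.67 ± 0.14 in obese rats and -1.52 ± 0.23 in lean rats (SD, n = 5 each). The resveratrol group was thus lowest, between -2.73 and -1.67, and overlapped the obese group, between -1.80 and -1.50, in 2 rats. Its parts were 4.34 ± 0.53 for the DCIR group with Clec12a and 6.46 ± 0.65 for the activating pair in resveratrol rats, against 4.83 ± 0.26 for the DCIR group with Clec12a and 6.50 ± 0.16 for the activating pair in obese rats. The activating means were thus nearly level, and of the DCIR group and Clec12a, Clec4a3 and Clec4a1 had the differences furthest below 0, as given above. The difference between resveratrol and obese rats in this measure ran from -0.57 to -0.30 when single rats were left out. In the same comparison monocyte genes had a median difference of -0.43 and neutrophil genes of 0.29. The part of these cell types in the measure was not tested, and no test was made of the means.

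**Figure D3:**
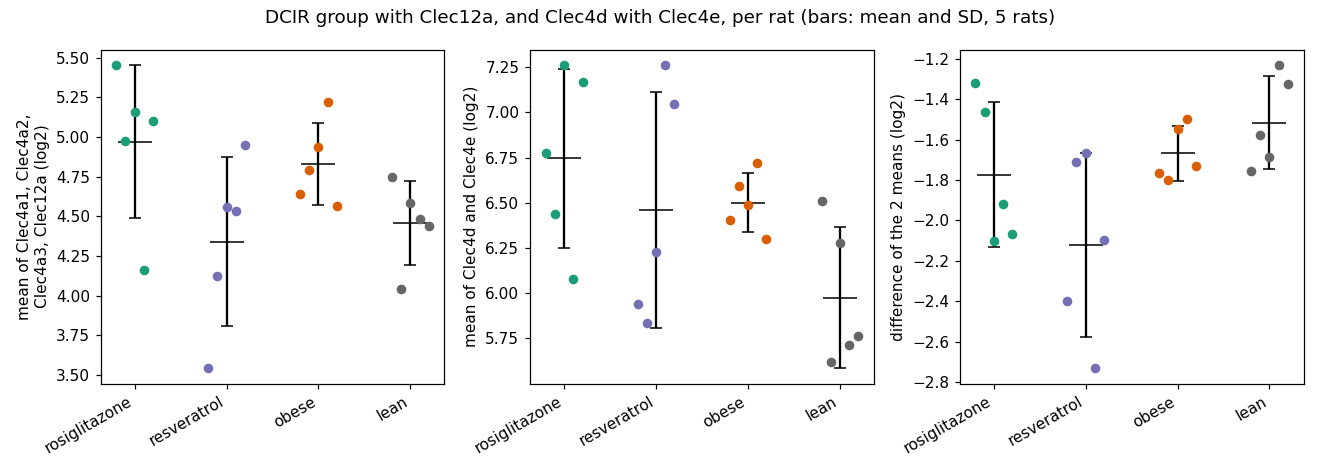
For each rat, the mean log2 value of Clec4a1, Clec4a2, Clec4a3 and Clec12a (left), of Clec4d and Clec4e (middle) and their difference (right), by group; points are rats and bars are mean and SD of 5, and no axis starts at 0. In the right panel the resveratrol rats (-2.73 to -1.67) reach lowest and the lean rats (-1.76 to -1.23) highest.

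A wider gap lay between Clec4a3 and Clec5a, a pair picked after their values were seen. Clec4a3 less Clec5a was 2.16 ± 1.11 in rosiglitazone, 0.80 ± 0.84 in resveratrol, 2.47 ± 0.31 in obese and 2.21 ± 0.29 in lean rats. The highest resveratrol rat (1.79) lay below the lowest obese (2.12) and the lowest lean rat (1.87). In the rosiglitazone group the same difference ran between 1.31 and 3.85. Replicates 3, 4 and 5 of that group (1.56, 1.34 and 1.31) lay within the resveratrol range.

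How the receptors varied among rats of 1 group followed a similar line. With group means taken off, Pearson's r over the 20 rats was highest for Clec4d with Clec4e (0.914), then Clec4e with Clec5a (0.843) and Clec4a1 with Clec4a3 (0.822). It was lowest for Clec4a3 with Clec5a (0.032) and Clec12a with Clec5a (0.226), and all 21 pairs were above 0. Clec4d and Clec4e are neighbours in the genome and both couple to the Fc receptor gamma chain, and Clec4a1 and Clec4a3 are neighbours as well. Clec4a2, which lies next to Clec4a3, was closer to Clec4d (0.756) and Clec4e (0.752) than to Clec4a3 (0.451). All points share the arrays and their scaling, and these values describe likeness only.

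**Figure D4:**
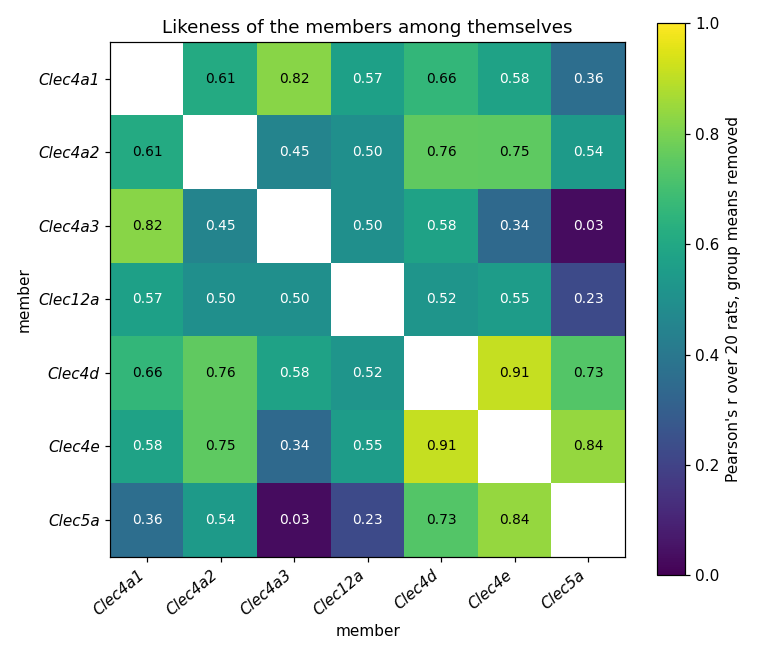
Pearson's r between each pair of receptors over 20 rats, after the mean of each rat's group was subtracted (colour from 0 to 1, with the value in each cell). Clec4d with Clec4e has the highest value (0.91) and Clec4a3 with Clec5a the lowest (0.03).

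The 3 genes whose pattern within groups was most like that of each receptor were 20 different genes, of which 1, Cd68, belongs to the monocyte list used below and 2, Cxcr2 and Mmp8, to the neutrophil list. Clec4e was closest to Mir223, the locus of a microRNA abundant in neutrophils (r = 0.938), and to Cxcr2, the neutrophil chemokine receptor (0.910), and then to Tut7, a terminal uridylyltransferase (0.908). Clec4d was closest to Mir223 (0.901), Fcgr1a, a high-affinity Fc receptor (0.897), and Ralb, a small GTPase (0.890). Clec5a was closest to Ccr1 (0.894), a chemokine receptor, Il1rn (0.884), the antagonist of interleukin-1, and Mmp8 (0.877), the neutrophil collagenase. Clec4a3 went with Pilrb1l1 (0.915), of the paired immunoglobulin-like receptors, with Cd68 (0.896), a lysosomal protein of monocytes and macrophages, and with Celf2 (0.894), an RNA-binding protein. Clec4a1 went with Cbl (0.901), a ubiquitin ligase that ends receptor signalling, Asah1 (0.884), the acid ceramidase, and Snx10 (0.876), a sorting nexin. Clec4a2 went with Vsir (0.898), the checkpoint protein VISTA, Stx18 (0.882), a syntaxin, and Adam17 (0.840), a sheddase of membrane proteins. Clec12a went with Ifngr1 (0.867), a chain of the interferon-gamma receptor, S100a11 (0.813), a calcium-binding protein, and Prr13 (0.770). Of these, Pilrb1l1 was 0.76 higher in obese than in lean rats (adjusted p = 0.0292) and 1.12 below obese rats in resveratrol rats (difference -1.12, adjusted p = 0.247). For Cd68 the difference between resveratrol and obese rats was -0.07 (adjusted p = 0.926). Likeness within groups did not carry over to the group means in each case: Celf2 was 0.22 below lean rats in obese rats (difference -0.22, adjusted p = 0.420), where Clec4a3 was 0.47 above.

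Set against marker means of the cell types, taken within groups in the same way, the closest relations were those of Clec4a1 and Clec4a3 with monocyte genes and of Clec4e and Clec5a with neutrophil genes. Differences between 2 such correlations were not tested. Receptors and marker genes share the arrays and their scaling. How many of all tested genes follow these means as closely was not examined. Clec4a3 followed the mean of the monocyte genes over the 20 rats (r = 0.886, rho = 0.821, permutation p = 1.5e-04, adjusted over 14 relations 0.0007; r = 0.772 without the 2 rats farthest from the median) and not detectably that of the neutrophil genes (r = 0.216, permutation p = 0.584). Clec4a1 also followed the monocyte mean (r = 0.894, rho = 0.705, permutation p = 0.00038, adjusted 0.00133, and 0.734 without the 2 farthest), and its relation with neutrophil genes passed by rank (rho = 0.579, adjusted permutation p = 0.0313) but not by r (0.469, adjusted permutation p = 0.119). Clec5a followed the neutrophil mean (r = 0.851, rho = 0.907, permutation p = 2.0e-05, adjusted 0.00021, and 0.854 without the 2 farthest) and not detectably the monocyte mean (r = 0.278, permutation p = 0.369). Clec4e did so too (r = 0.826, rho = 0.889, permutation p = 3.0e-05, adjusted 0.00021, and 0.920 without the 2 farthest), and its relation with monocyte genes likewise passed by rank (rho = 0.558, adjusted permutation p = 0.0355) but not by r (0.480, adjusted permutation p = 0.122). Clec4d lay with both, at r = 0.726 for neutrophil genes (rho = 0.817, adjusted permutation p = 0.0101, and 0.825 without the 2 farthest) and r = 0.676 for monocyte genes (rho = 0.629, adjusted permutation p = 0.0137, and 0.474 without the 2 farthest).

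Clec12a and Clec4a2 gave weaker relations. Clec12a had r = 0.567 with monocyte and 0.509 with neutrophil genes, with adjusted permutation p of 0.0767 and 0.0674; by rank the monocyte relation passed (rho = 0.582, adjusted permutation p = 0.0313) and the neutrophil one did not (rho = 0.516, adjusted permutation p = 0.0559). Clec4a2 had r = 0.554 with monocyte genes, which was 0.255 without the 2 farthest rats, resveratrol replicate 1 and rosiglitazone replicate 4, so that this relation rested on them. Its r with neutrophil genes was 0.483 (adjusted permutation p = 0.119), and 0.810 without the 2 rats farthest on that axis, and by rank this relation passed (rho = 0.614, adjusted permutation p = 0.0313).

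**Figure D5:**
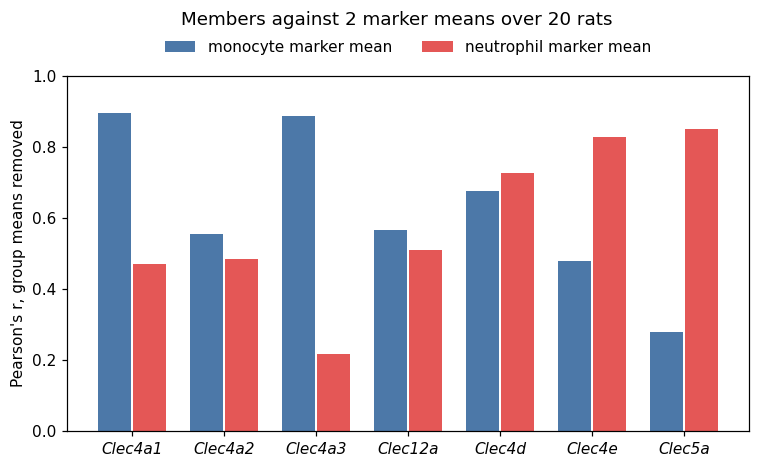
Pearson's r (vertical axis, from 0 to 1) of each receptor with the mean of 14 monocyte genes and with the mean of 12 neutrophil genes over 20 rats, after group means were subtracted. Clec4a1 and Clec4a3 have the tallest monocyte bars (0.894 and 0.886), and Clec5a and Clec4e the tallest neutrophil bars (0.851 and 0.826).

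Among the signalling partners of the activating receptors 0 passed in obese against lean rats. Of 28 listed genes, 20 were named and tested, and the median difference between obese and lean rats was -0.13, against -0.08 over all tested genes. Fcer1g, the gamma chain with which Clec4d and Clec4e pair, had a group mean of 9.28 in obese rats and 9.27 in lean rats (adjusted p = 0.980). Tyrobp, the partner of Clec5a, was at 7.79 in obese and 7.45 in lean rats (adjusted p = 0.191), Syk at 5.93 in obese and 6.22 in lean rats (adjusted p = 0.179), and Card9 at 2.70 in obese and 2.39 in lean rats (adjusted p = 0.451). Against lean rats, 4 fell and 1 rose in rosiglitazone rats, and 4 fell and 0 rose in resveratrol rats. Over all 8499 tested genes 1231 fell and 354 rose in rosiglitazone rats, and 886 fell and 232 rose in resveratrol rats. Malt1, the protease downstream of Card9 (-0.79 in rosiglitazone and -0.93 in resveratrol rats), and Plcg1, the phospholipase used in lymphocytes (-0.67 in rosiglitazone and -0.65 in resveratrol rats), were below in every treated rat. Both also act in T cells; 13 of 16 T cell markers fell in rosiglitazone and 6 of 16 in resveratrol rats, and the part of T cells in these values was not tested. Fgr, a Src-family kinase of myeloid cells, rose in rosiglitazone rats (0.86).

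On the side of the negative regulators, 9 of 14 listed phosphatases and other restraining genes were tested (10 named). In obese against lean rats, where 183 of all 8499 tested genes fell, 3 of the 9 fell and 0 rose. These were Ptpn11, which encodes SHP-2 (6.74 in obese and 7.41 in lean rats, difference -0.67, adjusted p = 0.0174), Csk, the kinase that restrains Src-family kinases (-0.53, adjusted p = 0.0385), and Ptpn22, a phosphatase of lymphocyte signalling (-1.05, adjusted p = 0.0497). Ptpn6, which encodes SHP-1, did not differ detectably (7.40 in obese and 7.42 in lean rats, adjusted p = 0.944). The same 3 genes fell and 1 rose in rosiglitazone against lean rats, and Csk and Ptpn22 fell in resveratrol against lean rats. No gene of the list passed in rosiglitazone or resveratrol rats against obese rats. Markers of B, T and NK cells had median differences of -0.55, -0.39 and -0.37 in obese against lean rats. The part of lymphocytes in the falls of Ptpn11, Csk and Ptpn22 was not tested.

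Among genes listed as targets of activating lectin receptors, such as cytokines and enzymes, 11 of 22 were tested (20 named). Nlrp3, the inflammasome sensor, rose in obese against lean rats (5.00 in obese and 4.15 in lean rats, difference 0.85, adjusted p = 0.0384), and it was the 1 call. Il1b was 0.61 higher with no call (adjusted p = 0.0914), and Il6 was too dim to be tested. In rosiglitazone against lean rats Nos2, the inducible nitric oxide synthase (1.24, adjusted p = 0.00607), Ccl2, a monocyte chemokine (0.82, adjusted p = 0.0133), and Il1rn (0.83, adjusted p = 0.0362) rose. In resveratrol rats 0 of 11 passed against either group. Against lean rats 68 of all 8499 tested genes rose in obese, 354 in rosiglitazone and 232 in resveratrol rats. The part of cell types in the values of these targets was not tested.

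Of 18 listed myeloid transcription factors, 12 were named and tested. Klf4, a factor of monocyte differentiation, rose in obese against lean rats (4.79 in obese and 4.11 in lean rats, difference 0.68, adjusted p = 0.0397), and all obese rats lay above all lean rats. In rosiglitazone against lean rats Klf4 (0.59) and Spi1, which encodes PU.1 (0.64, adjusted p = 0.0452), rose and Irf8 (-0.88, adjusted p = 0.00358) fell. Cebpa, of granulocyte and monocyte differentiation, rose in resveratrol against lean rats (0.62, adjusted p = 0.0402).

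Of the other C-type lectin genes, 33 were listed, 24 named and 17 tested, and 1 fell in obese against lean rats and 0 rose. Over all 8499 tested genes 183 fell and 68 rose. Cd69, an early activation receptor of lymphocytes, was at 5.43 in obese and 6.15 in lean rats (difference -0.72, adjusted p = 0.0430), and it also fell in both treated groups against lean rats. Clec1a, whose gene is next to Clec7a (1.08, adjusted p = 0.0040), and Cd302, a lectin of phagocytes (1.01, adjusted p = 0.00641), rose in rosiglitazone against lean rats, and Ly75, the dendritic cell receptor DEC-205, fell in resveratrol against lean rats (-0.67, adjusted p = 0.0369). Clec10a was 0.51 and Clec1a 0.70 higher in obese than in lean rats, with adjusted p of 0.150 and 0.0813. The median difference of the 17 genes was 0.10, against 0.47 for the 7 receptors and -0.08 for all tested genes.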

How the data were processed

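RNA of the blood of 20 rats (100 ng per array) was hybridized to Affymetrix Rat Gene 2.1 ST arrays. The authors deposited log2 intensities made by RMA (version not given in the sources used here), with 1 value for each of 36685 transcript clusters; no scanner values, and no sequencing depth, apply, and 5 arrays per group limit the precision. Clusters were named from the platform annotation (14824 with 1 symbol, 829 with several, 21032 unnamed here), with 14670 matched by Entrez ID to the RefSeq table of GRCr8. Those without exactly 1 symbol were not used, a gene took its brightest cluster, and genes with a mean over 20 arrays under 2.64, the median of all clusters, were removed.

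The test was that of limma 3.58.1 (lmFit, eBayes; R 4.3.3), obese against lean on those 10 arrays and the other 5 comparisons on all 20, with Benjamini-Hochberg adjustment over 8499 genes and a threshold of 0.05. The comparisons share the lean or the obese rats. In simulated data genes were drawn independently, each with its observed spread within groups pooled over the 4 groups. Of 8499 genes, 67, 67 and 66 were shifted by 0.5, 1 and 1.5. Of these, 3%, 71.6% and 97% were called in obese against lean rats, and 20.9%, 79.1% and 100% in resveratrol against obese rats. The adjusted test is stricter where fewer genes change. These shares therefore need not hold for the measured data, where 0 genes passed in resveratrol against obese rats. For obese against lean rats the simulated spread also took in the treated rats, whose arrays the measured comparison left out. Relations with marker means used 100000 permutations of rats within groups, two-sided, with Benjamini-Hochberg adjustment over 14 relations. The receptors, the 15 gene lists and the tests were chosen with earlier results of these data known. The text names the receptors and up to 3 called genes with the smallest p from each list and comparison. It also names defining genes of a list by their level, and the 3 genes outside the set most like each receptor. Il1b, Tyrobp, Syk, Card9, Il6 and Clec10a were chosen after their values were seen. Alternatives were array weights, a replicate block, median centring, quantile normalization, no filter, the mean of clusters, the other set of arrays, a trended robust prior and leaving out each array; leaving out 3 arrays was added after the data were seen. Python 3.11.15 with pandas 2.3.3 made the tables and matplotlib 3.10.9 the figures. The labels number the rats within groups and state no pairing, so the main fits used none. Deviations of rats with the same number had correlations between -0.18 and 0.27, which cannot show whether such rats shared a batch.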

Additional observations from a re-analysis of the deposited data

Results flagged for a closer look

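In each group of 5 rats the gap of the highest or lowest rat to its neighbour was set against Dixon's critical value of 0.71, over 32 groups, of which chance marks about 1 in 20. Clec4a1 in resveratrol replicate 1 was 4.5532, far below the other 4 resveratrol rats at 5.62 to 6.03 (gap over range 0.722), and this array also had the lowest correlation with the others. Clec12a in obese replicate 4 was 4.2068, far above the other 4 obese rats at 3.32 to 3.53 (gap over range 0.764), and without it the difference between obese and lean rats was -0.021.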

How the results depend on the processing

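Calls over all genes moved more than the receptors' differences. In obese against lean rats 251 genes were called, against 132 without the filter, 135 with quantile normalization, 455 with median centring, 23 with all 20 arrays (where 0 receptors passed), 75 with the replicate block, 504 with array weights, 79 without the 3 arrays and 512 with a trended robust prior. The block changed no receptor call. Quantile normalization gave 1012 calls for rosiglitazone against lean rats (1585), 415 for resveratrol against lean rats (1118, with 0 receptors) and 7 for rosiglitazone against resveratrol rats (4); without the 3 arrays the first 2 were 631 and 245 (0 receptors), and without the filter resveratrol against lean rats had 0 receptors. A trended prior gave 25 calls for rosiglitazone against obese rats (14) and 13 for rosiglitazone against resveratrol rats, where array weights gave 10. The share of calls that were higher was 27.1% in obese against lean rats, 52.6% with quantile normalization and 11.4% with centring; for rosiglitazone against lean rats 22.3%, 35.9% and 10.4%, for resveratrol against lean rats 20.8%, 42.4% and 9.8%, and for rosiglitazone against obese rats 71.4%, 50% and 72.7%. Signs turned for Clec4a2 with centring in obese (-0.022) and resveratrol against lean rats (-0.015), for Clec4a1 in rosiglitazone against obese rats with quantile normalization (0.022) and array weights (0.046), and without the 3 arrays for Clec4d in resveratrol against obese rats (0.011) and for Clec4a2 (-0.016) and Clec4d (-0.0063) in rosiglitazone against resveratrol rats. The causes were not tested.

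Leaving out each array in turn, calls over all genes ran over 46 to 459 (obese against lean), 3 to 16 (rosiglitazone against obese), 0 to 1 (resveratrol against obese), 785 to 1648 (rosiglitazone against lean), 317 to 1363 (resveratrol against lean) and 3 to 11 (rosiglitazone against resveratrol), and receptors called over 0 to 1, 0 to 0, 0 to 0, 0 to 4, 0 to 2 and 0 to 1. Differences crossed 0 for Clec4a2 in every comparison (obese against lean -0.10 to 0.15, rosiglitazone against obese -0.091 to 0.36, resveratrol against obese -0.16 to 0.27, rosiglitazone against lean -0.045 to 0.40, resveratrol against lean -0.11 to 0.32, rosiglitazone against resveratrol -0.14 to 0.34). They also did for Clec12a in obese against lean rats (-0.021 to 0.22), for Clec4a1 (-0.14 to 0.17), Clec4a3 (-0.25 to 0.33) and Clec4d (-0.027 to 0.28) in rosiglitazone against obese rats, and for Clec4d (-0.32 to 0.011) and Clec4e (-0.16 to 0.25) in resveratrol against obese rats.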
